A study of Danio rerio with 15 samples.

Results

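The genes described here are 8 chemokines of zebrafish larvae, 6 of the CC class (ccl19a.1, ccl19b, ccl25a, ccl25b, ccl27a and ccl34a.4) and 2 of the CXC class (CXCL12 and CXCL14). They were chosen by symbol, ignoring case, from a table of RNA levels that held 28103 genes once Ensembl IDs with a shared symbol were summed. Each of the 8 symbols stood for 1 Ensembl ID in this table, CXCL12 included, so its value for the symbol and for the ID alone is the same. All 8 were among the 13051 genes tested.

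All larvae carried Tg (flk1:eGFP; gata1:dsRed), 2 transgenes that label endothelium green and erythroid cells red. Venous endothelium behind the anal pore was damaged with a laser, and the thrombus at that site was taken 1, 3, 6 or 12 h later from 20 frozen sections of 20 µm by laser-capture microdissection, in which chosen areas of a section are cut out under a microscope. The control group was venous tissue of larvae with neither injury nor thrombus. Each of the 5 groups had 3 libraries, lettered A to C here, and the 1 h library called B is known only by its column's letter. Per the series text, clots began at 1 h, were at their peak at 3 h, were stable at 6 h and were shrinking at 12 h. The design has no uninjured group at 1, 3, 6 or 12 h, so age, handling and injury cannot be told apart. Which animals a library came from is not in the labels, and libraries may share or pool animals. The p-values therefore rest on the spread among libraries alone, which may be technical, and they may be too small.

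Chemokines are small secreted proteins that guide moving cells through receptors on those cells. In mammals, CCL19 acts through CCR7 on lymphocytes and dendritic cells, CCL25 from thymus and gut acts through CCR9, and CCL27 from keratinocytes acts through CCR10. CXCL12 acts through CXCR4 and is bound and cleared by ACKR3, and in zebrafish this trio steers migrating cells and growing vessels. CXCL14 is made by many epithelia in mammals, and ccl34a.4 belongs to a CC group named in fish.

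Levels are FPKM, read levels scaled to transcript length and to the size of the library, and they came from 12486844 to 15651535 recovered reads a library. Between 11443 and 17422 Ensembl IDs were above 0 in a library. Of 18 genes that most cells use, 3 were at 0 in at least 1 library: HPRT1 in all 15, TBP in 2 and LMNA in 1. A 0 here, also one in every library, thus means only that a gene was listed at 0. The endothelial markers summed to 51.0 to 52.6 FPKM in the control and to 10.8 to 38.5 at 1 h, 10.8 to 23.7 at 3 h, 49.2 to 54.2 at 6 h and 27.2 to 69.8 at 12 h. The defining endothelial genes kdrl and cdh5 were above 0 in all 15 libraries, but at lowest only 0.028 and 0.189 FPKM. vwf was above 0 in 3. Epidermis markers summed to 850 to 11593 FPKM and skeletal muscle markers to 88742 to 193776 FPKM in the same libraries. Library 12 h B stood apart, with 900 FPKM of neural markers against 50.7 and 54.3 in the other 12 h libraries and 7.0 FPKM of neutrophil markers against 127 and 180. Library 1 h B had 299 FPKM of neural markers against 27.2 and 56.4.

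Summed over the 8 chemokines, the level was highest in the control and at 12 h. The sum was 134 to 270 FPKM in the control, 60.9 to 108 at 1 h, 40.8 to 63.8 at 3 h, 53.8 to 86.8 at 6 h and 191 to 240 at 12 h. Every control and 12 h library lay above every library of 1, 3 and 6 h. The sum is unweighted, so its most abundant genes carry it, and it does not stand for each of the 8. By mean, only ccl27a, ccl25b and CXCL14 had the control and 12 h as their highest groups. ccl34a.4 was lowest in the control, ccl19a.1 and CXCL12 were highest at 6 h, and ccl19b was highest at 1 h. Which gene made up the sum differed between groups. The highest of the 8 was ccl25b in 6 libraries, ccl27a in 4, ccl34a.4 in 4 and ccl19b in 1. In the control ccl27a made up 26.4% to 88.1% of the sum and ccl34a.4 was listed at 0, and at 3 h ccl27a made up 0% to 19.1% and ccl34a.4 23.9% to 50.8%. In bulk tissue, fewer cells of a type and less RNA per cell cannot be told apart.

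**Figure D1:**
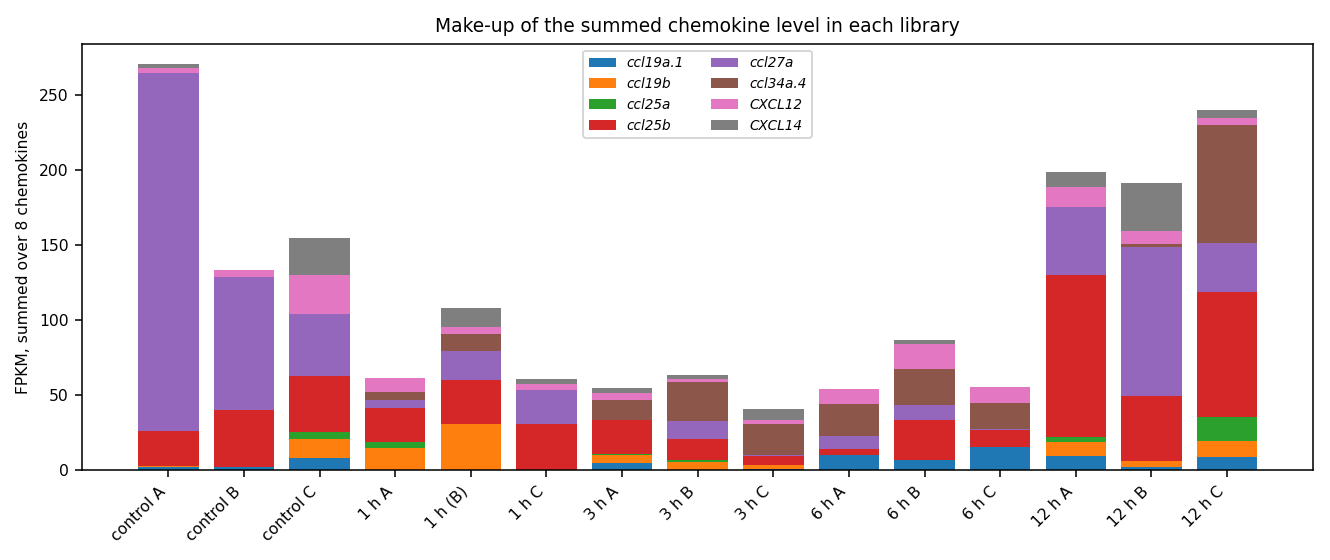
Summed FPKM of the 8 chemokines in each of the 15 libraries (bars), divided by gene (colours). The bars reach 134 to 270 FPKM in the control and 191 to 240 at 12 h, and at most 108 in the other groups.

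The comparison with the control asks how each chemokine stood in thrombus tissue, and that between times asks how it moved as the clot formed and regressed. Over 8 pairwise comparisons, ccl27a fell from the control to 3 h and rose from 3 h to 12 h, ccl25b rose from 3 h to 12 h, and no other difference passed the threshold (limma on log2(FPKM + 1), Benjamini-Hochberg adjusted over the 13051 genes, threshold 0.05). The 4 comparisons with the control share the control libraries, and those that share a time share its libraries. Differences on this scale understate the change of low genes.

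ccl27a, whose mammalian relative is a skin chemokine, had the highest single level of the 8 and the widest range among the groups. It was at 238, 88.0 and 40.9 FPKM in control A, B and C, from 1832, 696 and 278 reads. At 1 h it was at 5.22, 19.6 and 22.1 FPKM, and at 3 h at 0, 12.2 and 0.739 FPKM, the last 3 from 0, 77 and 5 reads. The lowest control library thus lay above all 1 h and 3 h libraries. At 6 h it was at 9.04, 9.72 and 0.965 FPKM, and at 12 h at 45.8, 99.2 and 32.5 FPKM. In FPKM the 12 h libraries lay above all libraries of 1, 3 and 6 h and overlapped the control. Against 1 h this depended on the scaling. Divided by their median ratio factors of 1.48 and 0.978, 12 h C lay below 1 h C. The groups of 12 h and 1 h were not compared in the fits. Ordered by mean, the groups ran control, 12 h, 1 h, 6 h and 3 h. The 2 highest groups overlapped, as did 1 h with 6 h and with 3 h, and 6 h with 3 h.

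At 3 h ccl27a was lower than in the control by a log2 difference of -5.08 (SE 0.93, 95% interval -7.04 to -3.13, limma adjusted p = 0.0118), and lower in 3 of 3 libraries. It was the 1 member called there, beside 1.39% of all genes tested and 0.552% called lower. Its 3 h libraries lay below all of the control, as those of ccl25b did and those of 11.6% of all genes. From 3 h to 12 h ccl27a rose by 4.25 (SE 0.93, 95% interval 2.29 to 6.20, limma adjusted p = 0.0218). It also passed the F test over the 5 groups (limma adjusted p = 0.0247), which 1.62% of genes passed, and no other member did. The differences from the control of -2.75 at 1 h and -4.01 at 6 h had groups that did not overlap and adjusted p of 0.344 and 0.350 in limma. At 6 h 6.56% of all genes lay below the control without overlap. At 12 h the difference from the control was -0.84 (limma adjusted p = 0.851).

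Neither ccl27a call held in every alternative. That for 3 h against control ended without control A (adjusted p = 0.0871) or without 3 h A (0.0654), with only the 2 groups in the fit (0.132), with no filter on low genes (0.0575) and with voom on recovered reads (0.0627). That for 12 h against 3 h ended in 8 of 24 alternatives, with adjusted p up to 0.118. Among them were the fits without 12 h B, the library that stood apart (log2 difference 3.80, adjusted p = 0.0735), and without 3 h A (3.49, adjusted p = 0.0914). These adjusted p are from limma, as in the reported fit.

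Epidermis markers were given beside ccl27a because its mammalian relative is made in skin. The 25 listed markers, 22 of them kept by the filter, summed to 5116, 4860 and 6710 FPKM in control A, B and C and to 5754, 9217 and 983 at 1 h. They summed to 10930, 6515 and 1861 FPKM at 3 h, to 850, 2018 and 3020 at 6 h, and to 11593, 9896 and 10365 at 12 h. The 6 h libraries were all below the control and the 12 h libraries all above it, while 1 h and 3 h spanned the control range. None of the 25 was at 0 in every library, but krt5, cldni and epcam did not pass 0.407 FPKM in any. The sum is unweighted, so abundant markers carry most of it. Among them icn2 was at 255 to 4804 FPKM and krt91 at 166 to 1785, while TP63 did not pass 7.45. Of the 22, 1 was called higher and 0 lower at 3 h against the control, and their median log2 difference was 0.22 beside -0.13 for all genes.

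Set against that sum, ccl27a was at 46.6, 18.1 and 6.10 FPKM per 1000 FPKM of epidermis markers in the control. It was at 0, 1.87 and 0.397 at 3 h, all below the lowest control library. At 12 h the values were 3.95, 10.0 and 3.13, which overlapped the control and lay above 3 h. The values of 0.907, 2.12 and 22.5 at 1 h and of 10.6, 4.82 and 0.319 at 6 h overlapped the control, unlike the FPKM. This ratio was chosen after the levels were seen and was given no test. It is set mainly by the abundant markers and is not a measure of the amount of epidermis.

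**Figure D2:**
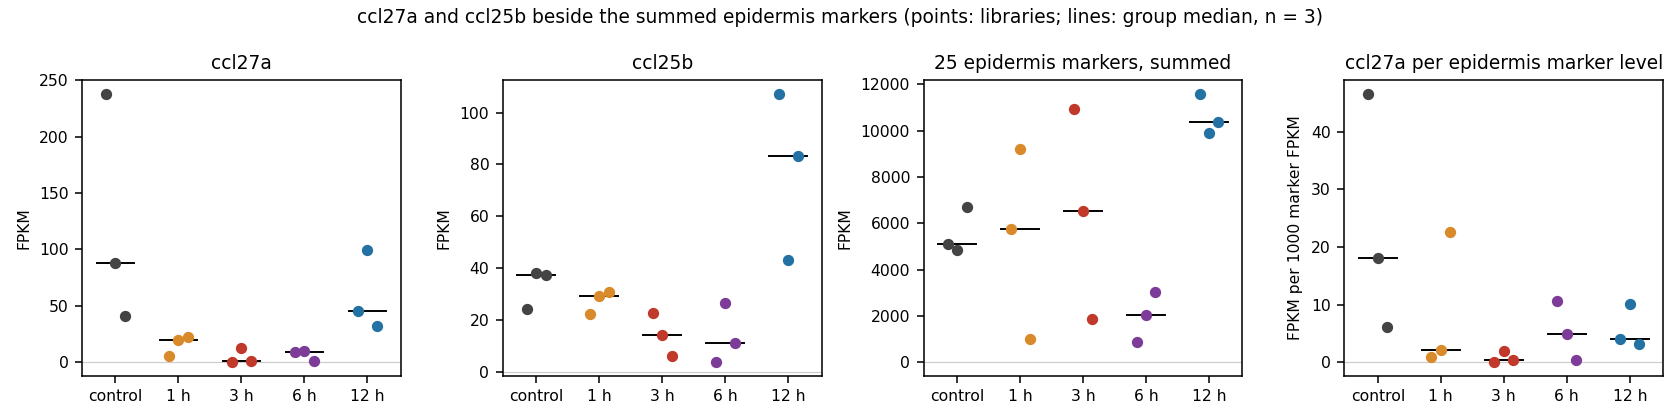
FPKM of ccl27a and ccl25b, summed FPKM of 25 epidermis markers, and ccl27a per 1000 FPKM of those markers, by group (points: libraries; lines: medians; n = 3 per group). ccl27a is low at 3 h, 0 to 12.2 FPKM, in libraries whose marker sums run from 1861 to 10930 FPKM.

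ccl25b, a relative of the mammalian thymus and gut chemokine, was above 0 in all 15 libraries and rested on 152 to 4648 reads. It was at 24.0, 38.1 and 37.4 FPKM in the control (33.2 ± 7.97, SD, n = 3) and at 22.2, 29.2 and 30.9 at 1 h (27.4 ± 4.59). At 3 h it was at 22.8, 14.3 and 5.80 FPKM (14.3 ± 8.48), and at 6 h at 3.61, 26.4 and 11.1 (13.7 ± 11.6). At 12 h it was at 107, 43.1 and 83.4 FPKM (78.0 ± 32.5), above every library of the other 4 groups. By mean the groups ran 12 h, control, 1 h, 3 h and 6 h, and of the neighbours in that order the control overlapped 1 h, 1 h overlapped 3 h and 3 h overlapped 6 h.

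From 3 h to 12 h ccl25b rose by a log2 difference of 2.45 (SE 0.61, 95% interval 1.17 to 3.73, limma adjusted p = 0.0401) and was higher in 3 of 3 libraries. With ccl27a it made 2 of 8 members called, both higher, beside 2.72% of all genes called and 1.85% called higher. The libraries of these 2 members did not overlap, as was so in the same direction for 16.9% of all genes. The median log2 difference of all genes in this comparison was 0.45, and that of the 8 members 1.40. With median ratio scaling the median of all genes was 0.19 and the difference of ccl25b 2.05 (limma adjusted p = 0.0768), and with quantile normalization they were 0.01 and 2.18 (adjusted p = 0.0515). Over all genes, 241 were called higher and 114 lower in the reported fit, 108 and 162 with median ratio scaling, and 88 and 169 with quantile normalization.

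The ccl25b call held in 8 of 24 alternatives, and in the 24 its adjusted p ran from 0.0177 with voom to 0.132 with only the 2 groups in the fit. It ended without control A, B or C, 3 h A, B or C, 6 h C, 12 h A or 12 h C, with limma adjusted p of 0.0502 to 0.127, and it held without 12 h B (2.82, adjusted p = 0.0459). Against 6 h the 12 h difference was 2.68 (limma adjusted p = 0.0971). The difference from the control was -1.31 at 3 h and -1.54 at 6 h, with limma adjusted p of 0.344 and 0.853, and 1.14 at 12 h, with adjusted p of 0.691. At 12 h ccl25b was the 1 member whose libraries all lay above the control in FPKM, as did those of 12.2% of all genes. The median ratio factors were 1.33, 1.20 and 1.48 in 12 h A, B and C and 0.973, 1.03 and 1.12 in the control. Divided by these factors, 12 h B lay below control B for ccl25b.

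Per 1000 FPKM of epidermis markers ccl25b was at 4.68, 7.84 and 5.58 in the control. It was at 3.86, 3.16 and 31.5 at 1 h, at 2.08, 2.19 and 3.12 at 3 h and at 4.25, 13.1 and 3.67 at 6 h. At 12 h it was at 9.26, 4.36 and 8.05. The 12 h values overlapped the control, 1 h and 6 h on this scale, unlike the FPKM, and lay above all 3 at 3 h. The highest values were those of 1 h C and 6 h B. The part of the epidermis in either result was not tested. The 11 T cell and thymus markers, 3 of them kept by the filter, summed to 1.27 to 3.33 FPKM in the control, 1.36 to 19.4 at 1 h, 8.97 to 13.8 at 3 h, 0.493 to 9.04 at 6 h and 0.574 to 9.24 at 12 h. The 3 h sums all lay above the control and, apart from 3 h C, above all 6 h and 12 h libraries. Much of these sums was CCR9, the CCL25 receptor, at 11.2, 8.77 and 4.57 FPKM of 13.2, 13.8 and 8.97 in 3 h A, B and C. In 1 h B it was 19.4 of 19.4 FPKM. CCR9 reached 19.4 FPKM and IKZF1, above 0 in 13 libraries, 5.08, while il7r reached 3.87, RAG2 1.97 and foxn1 1.92. The thymocyte genes RAG1, cd4-1, cd8a and ZAP70 did not pass 0.678 FPKM, and lck was at 0 in every library. The part of these cells in the level of ccl25b was not tested. RefSeq's GRCz12tu annotation places a second gene, LOC141376522, over ccl25b, and with strand use not stated their reads may be confounded.

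ccl25a, the other copy of the CCL25 gene, was the lowest of the 8, listed at 0 in 7 libraries and with a median of 3 reads. It was at 0, 0.037 and 4.41 FPKM in the control, at 4.33, 0 and 0.179 at 1 h and at 0.525, 1.27 and 0 at 3 h. It was at 0 in all 6 h libraries and at 3.59, 0 and 15.9 FPKM at 12 h. Each of the 5 groups held at least 1 library at 0, so no group lay apart from another. Its 12 h against 6 h log2 difference was 2.09 (limma adjusted p = 0.410).

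ccl34a.4 was at 0 in the 3 control libraries and above 0 in every 3 h and 6 h library. It was at 5.42, 11.0 and 0 FPKM at 1 h, at 13.1, 25.4 and 20.7 at 3 h (19.8 ± 6.20, SD, n = 3) and at 21.0, 24.1 and 17.5 at 6 h (20.8 ± 3.31). These 6 libraries of 3 and 6 h had 90 to 169 reads each, and 3 reads would be 0.362 to 0.453 FPKM. At 12 h it was at 0, 2.51 and 79.1 FPKM, which held a 0 and also the highest value of the 15. The 3 h and 6 h libraries lay above all control and 1 h libraries and did not separate from each other. With ccl19a.1 it was 1 of 2 members whose 3 h libraries all lay above 1 h, as did those of 6.18% of all genes. For ccl19a.1 this rests on 2 reads in 3 h B against 1 read in 1 h B.

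The log2 difference from the control was 4.33 at 3 h (SE 1.15, 95% interval 1.90 to 6.76) and 4.44 at 6 h, with limma adjusted p of 0.0775 and 0.490, so neither passed. Higher levels without overlap were found for 7.65% of all genes at 3 h and 6.32% at 6 h. At 3 h it passed in 6 of 25 alternatives, among them the fit without the 12 h libraries (adjusted p = 0.0144), without 12 h C alone (0.0153) and with voom on reads (0.0128), all by limma. The wide 12 h values enter the spread that the 5 groups share in the reported fit. Against the control the 12 h difference was 2.71 (limma adjusted p = 0.608), and the 1 h difference 2.09 (adjusted p = 0.616).

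**Figure D3:**
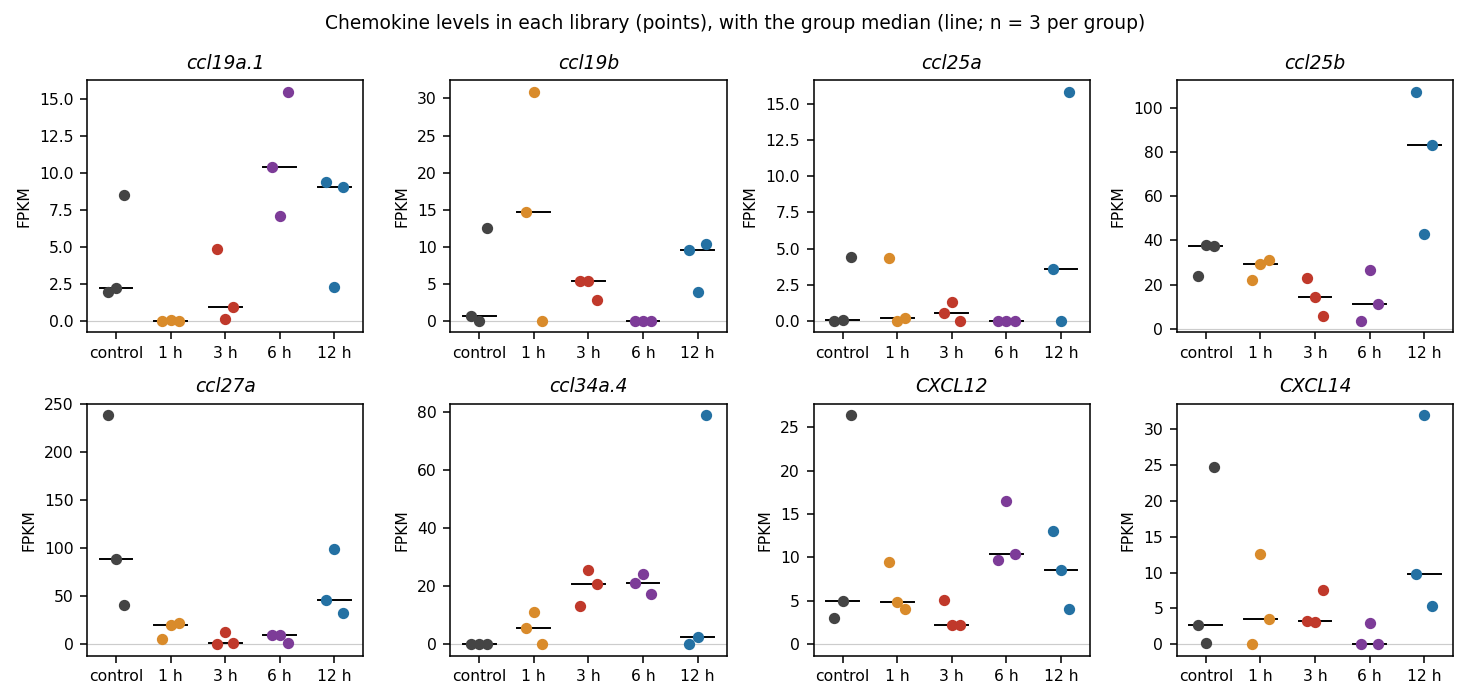
FPKM of each chemokine by group (points: libraries A, B and C from left to right; lines: group medians; n = 3 per group; each panel has its own linear axis). ccl27a is low at 3 h, ccl25b high at 12 h, and ccl34a.4 at 0 in the control and at 13.1 to 25.4 FPKM at 3 h and 6 h.

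Leukocyte markers are given beside ccl34a.4. The 9 neutrophil markers summed to 48.9 to 91.0 FPKM in the control, 32.9 to 63.6 at 1 h, 155 to 258 at 3 h, 73.3 to 95.1 at 6 h and 7.0 to 180 at 12 h. Among them lyz did not pass 0.693 FPKM and cebp1 was above 0 in 2 libraries, while npsn was above 0 in all 15. The protease gene mmp13a was at 1.01, 0.189 and 0.219 FPKM in the control and at 40.9, 49.7 and 11.8 at 3 h. Another protease gene, MMP9, reached 113 FPKM in 1 library of the 15, and npsn reached 110. Library 12 h A, with the 12 h group's highest neutrophil sum, was listed at 0 for ccl34a.4. The 14 macrophage markers summed to 34.8 to 58.3 FPKM in the control, 25.3 to 58.0 at 3 h, 54.2 to 102 at 6 h and 15.5 to 179 at 12 h, with the highest in 12 h C, where ccl34a.4 was highest. Library 12 h A, where ccl34a.4 was at 0, had 91.4 FPKM of macrophage markers, above every control and 3 h library. MPEG1 did not pass 2.92 FPKM and SLC7A7 was at 0 in every library. The part of these cells in the level of ccl34a.4 was not tested.

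ccl19a.1, one of the zebrafish relatives of the lymph node chemokine CCL19, was lowest in the 1 h libraries. It was at 1.92, 2.23 and 8.48 FPKM in the control and at 0, 0.044 and 0 at 1 h, the latter from 0, 1 and 0 reads. At 3 h it was at 4.87, 0.099 and 0.931 FPKM, at 6 h at 10.4, 7.11 and 15.5 (11.0 ± 4.22, SD, n = 3), and at 12 h at 9.37, 2.27 and 9.04 (6.89 ± 4.01). The 1 h libraries lay below every other library, at the closest by 1 read in 1 h B against 2 reads in 3 h B. Both counts are under 3 reads, which would be 0.119 to 0.150 FPKM. The 6 h libraries lay above all of 3 h, as was so from 3 h to 6 h for CXCL12 and for 11.5% of all genes. By mean the groups ran 6 h, 12 h, control, 3 h and 1 h. Among neighbours in that order only 3 h and 1 h did not overlap, and that rests on these few reads.

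None of the ccl19a.1 differences passed. The log2 difference from the control at 1 h was -2.14 (limma adjusted p = 0.340), and 0 of the 8 members were called there beside 0.222% of all genes. ccl19a.1 and ccl27a were the 2 members whose 1 h libraries all lay below the control, as did those of 8.47% of genes. With voom on the recovered reads the 1 h value of ccl19a.1 was -6.56 (limma adjusted p = 0.0493), the only one of 25 alternatives in which it passed, and voom called 0.682% of all genes there. The difference from 3 h to 6 h was 2.31 (limma adjusted p = 0.128) and the F test over the 5 groups gave an adjusted p of 0.0601. RefSeq's GRCz12tu annotation places ccl19a.2 over ccl19a.1, and use of strand in counting is not given in the sources used here, so reads of these 2 genes may be confounded. ccl19a.2 was above 0 only in 6 h C, at 5.25 FPKM, where ccl19a.1 was also highest.

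ccl19b, the other CCL19 relative, had a different order of groups from ccl19a.1. It was at 0.619, 0 and 12.5 FPKM in the control, at 14.7, 30.9 and 0 at 1 h, and at 5.42, 5.37 and 2.81 at 3 h. It was at 0 in all 3 libraries of 6 h, where ccl19a.1 was highest, and at 9.53, 3.87 and 10.4 FPKM at 12 h. The 6 h libraries thus lay below all of 3 h and 12 h, while the control and 1 h each held a library at 0 too. Lower levels without overlap from 3 h to 6 h were found for ccl19b, CXCL14 and 8.18% of all genes. The log2 difference was -2.43 from 3 h to 6 h (limma adjusted p = 0.304) and 3.06 from 6 h to 12 h (adjusted p = 0.318), and neither passed. The difference between the 2 copies in their response was not tested.

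CXCL12, the ligand of CXCR4, was above 0 in all 15 libraries, from 82 to 1079 reads. It was at 3.00, 5.02 and 26.4 FPKM in the control and at 9.43, 4.91 and 4.08 at 1 h (6.14 ± 2.88, SD, n = 3). At 3 h it was at 5.09, 2.15 and 2.26 FPKM (3.17 ± 1.67), at 6 h at 9.74, 16.5 and 10.4 (12.2 ± 3.72) and at 12 h at 13.0, 8.50 and 4.07 (8.53 ± 4.47). In FPKM all 6 h libraries lay above all 3 h and 1 h libraries, though 6 h A had 370 reads and 1 h A 359. Divided by their median ratio factors of 1.09 and 1.03, 6 h A lay below 1 h A. The groups of 6 h and 1 h were not compared in the fits. The control overlapped every group, with control C the highest of the 15. The log2 difference from 3 h to 6 h was 1.70 (95% interval 0.27 to 3.13, limma adjusted p = 0.244). Against the control the values ran from -1.13 at 3 h to 0.57 at 6 h. RefSeq lists cxcl12 among the synonyms of cxcl12a. The copy cxcl12b, which carries its own symbol and is not among the 8, was at most 8.47 FPKM in 12 h C and 2.96 FPKM in 6 h A.

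CXCL14, an epithelial chemokine in mammals, varied widely within groups. It was at 2.73, 0.111 and 24.8 FPKM in the control, at 0, 12.6 and 3.56 at 1 h and at 3.26, 3.04 and 7.54 at 3 h (4.61 ± 2.54, SD, n = 3). At 6 h it was at 0, 2.97 and 0.040 FPKM and at 12 h at 9.75, 32.0 and 5.36 (15.7 ± 14.3). The 6 h libraries lay below all of 3 h and 12 h and overlapped the control and 1 h. The log2 difference from 6 h to 12 h was 3.03 (95% interval 0.76 to 5.31, limma adjusted p = 0.320). Against the control it ran from -1.56 at 6 h to 1.47 at 12 h, and no value passed.

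**Figure D4:**
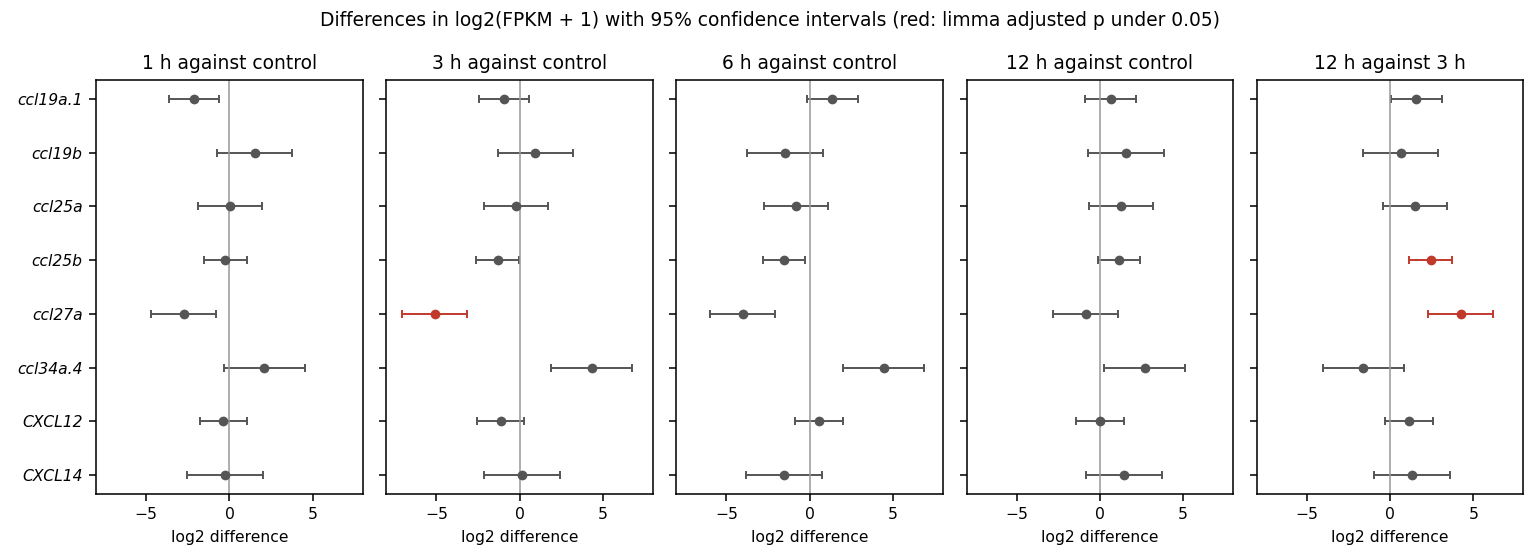
Log2 differences of the 8 chemokines on the log2(FPKM + 1) scale with 95% confidence intervals from limma, for 4 times against the control and for 12 h against 3 h (red: adjusted p under 0.05). The 3 values past the threshold are ccl27a at 3 h against control, -5.08, and ccl27a and ccl25b at 12 h against 3 h, 4.25 and 2.45.

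At 6 h and at 12 h against the control 0 of the 8 were called, and so were 0.0% of all genes in both. At an unadjusted p under 0.05 limma gave 721 genes at 6 h (5.52%) and 992 at 12 h (7.6%), and voom on reads called 1 gene (0.00766%) and 8 genes (0.0613%). At 12 h 7 of the 8 had a positive difference, with a median of 1.20 beside 0.32 for all genes, and ccl27a was the exception. Of the 7, CXCL12 was at 0.01, and at -0.28 with median ratio scaling. At 6 h 5 of the 8 were negative, with a median of -1.16 beside -0.02 for all genes. From 1 h to 3 h 0 of 8 were called beside 0.245% of genes, from 3 h to 6 h 0 beside 1.11%, and from 6 h to 12 h 0 beside 0.0996%. From 6 h to 12 h the libraries of ccl19b, ccl25b, ccl27a and CXCL14 all lay higher without overlap, as did those of 13.6% of all genes.

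The submitters' own threshold asked for a log2 change of more than 1 either way and a p below 0.05 before adjustment. On the limma values it took 2 of the 8 at 1 h against control beside 8.77% of all genes, 3 at 3 h beside 13.4%, 3 at 6 h beside 5.36% and 1 at 12 h beside 7.21%. From 1 h to 3 h it took 1 beside 10.9%, from 3 h to 6 h 3 beside 14.2%, from 6 h to 12 h 5 beside 10.7%, and from 3 h to 12 h 3 beside 18.7%. With voom and the adjusted threshold, 1 of the 8 was called at 3 h against control beside 2.49% of genes. There it was ccl34a.4 and not ccl27a. The same was so with only the 2 groups in the limma fit (adjusted p = 0.0347 and 0.132), which called 30 of 13051 genes. From 3 h to 12 h voom called 1, ccl25b, beside 3.0%, and in the F test 3 beside 3.8%.

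**Figure D5:**
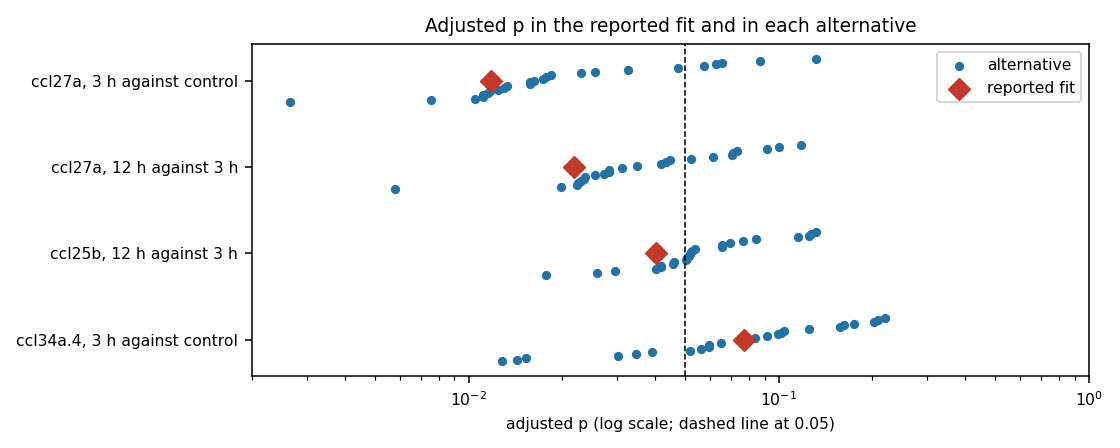
Adjusted p (log axis) of the 3 differences that passed and of ccl34a.4 at 3 h against control, in the reported fit (diamond) and in each alternative (points; dashed line at 0.05). ccl27a at 3 h lies under 0.05 in 20 of 25 alternatives, and ccl25b at 12 h against 3 h in 8 of 24.

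The receptors had medians of 0 to 6.63 FPKM over the 15 libraries, and none of the 4 that passed the filter was called in any comparison. The highest median was that of CXCR4, a sum of 2 Ensembl IDs, while the 5.09 FPKM of CXCL12 is of 1 ID. Neither CXCR4 ID alone had a median above that of CXCL12. CXCR4, the CXCL12 receptor, has 2 Ensembl IDs under this symbol, whose sum was 6.20 to 22.0 FPKM in the control, 0.552 to 16.5 at 1 h, 4.99 to 12.7 at 3 h, 3.19 to 13.2 at 6 h and 5.55 to 8.64 at 12 h. ACKR3, which takes up CXCL12, was at most 9.94 FPKM, in 12 h B. All 5 groups overlapped for both genes.

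CCR9, the CCL25 receptor, was the one receptor of the 8 ligands whose 3 h libraries all lay above the control, as did those of 7.65% of all genes. It was at 0, 1.27 and 0 FPKM in the control, at 0.602, 19.4 and 2.53 at 1 h, and at 11.2, 8.77 and 4.57 at 3 h. At 6 h its highest library was at 2.89 FPKM and at 12 h at 7.23. The log2 difference at 3 h was 2.73 (limma adjusted p = 0.186), and the ligand ccl25b stood lower at 3 h than in the control, also short of the threshold. CCR7, the CCL19 receptor, was above 0 in 3 libraries, at 4.05 FPKM in 3 h A, 1.01 in 3 h B and 1.02 in 1 h B. ccr10, the receptor of the mammalian relative of ccl27a, was above 0 in 2, at 4.74 FPKM in 12 h C and 0.027 in 6 h C. The scavenging receptor ACKR4 was at most 1.41 FPKM in any Ensembl ID.

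Among 44 other chemokine ligands 19 were at 0 in every library and 11 passed the filter. In 8 pairwise comparisons 1 of the 11 was called once: cxcl8b.1, a relative of the neutrophil attractant CXCL8, rose by 4.49 at 3 h against the control (limma adjusted p = 0.0376). It was at 0, 0 and 6.25 FPKM in the control and at 42.1, 61.1 and 29.5 at 3 h. Of all genes, 1.39% were called in that comparison, and alternative fits of cxcl8b.1 are not given here. The median log2 difference of the 11 at 3 h was 0.57, against -0.59 for the 8 chemokines above and -0.13 for all genes. Of 22 chemokine receptors 4 passed the filter, the same 4 named above.

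The genes most like each chemokine were ranked by Pearson r of log2(FPKM + 1) over the 15 libraries, as a description, since libraries share their group. For ccl27a they were TMEM276-ZFTRAF1 (0.86), cetn4 (0.86) and ak5l (0.84), and for ccl25b s100v2, ASAH1 and serinc2 (0.85 each). For ccl34a.4 they were TECPR2 (0.86), mmp13a (0.83), a collagenase gene that was also on the neutrophil list, and adamtsl7 (0.80). For ccl19a.1 they were rnf144b (0.88), SSR4 (0.87) and MTG1 (0.85), and for ccl19b TBC1D5 (0.91), ERBB3 (0.87) and malat1 (0.85). For ccl25a, at 0 in 7 libraries and highest in 12 h C, they were col6a4b (0.98), cd44a (0.96) and PC (0.94). For CXCL12 they included SEMA4C (0.92) and LIPT1 (0.82), and for CXCL14 they were BACH2, mid1ip1l and anxa13l (0.82 each).

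Between the chemokines themselves the values of r over the same 15 libraries ran from -0.60 for ccl27a with ccl34a.4 to 0.60 for ccl19b with ccl25a. ccl27a was high in the control, where ccl34a.4 was listed at 0, and low at 3 h and 6 h, where ccl34a.4 was above 0 in every library. The paralogs ccl19a.1 and ccl19b had an r of -0.24.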

How the data were processed

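RNA was measured in 15 libraries of 5 groups. Per the labels and the submitters' processing notes, HISAT placed paired-end reads on GRCz11 (Ensembl release 106), and the authors made the deposited FPKM with StringTie and edgeR. The sources used here do not give tool versions, annotation filters or strand settings. A length and depth scaling of this kind depends on the abundant genes of each library.

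The table has 32520 Ensembl IDs, of which 29201 have a symbol in the gene name table. Left out were 3 columns for 5 h, a time that no sample label has. A 1 h column lettered B has no sample title of that letter and counts only as a member of the 1 h group. Counts were recovered from the FPKM, since each value is a whole number of reads times what 1 read is worth. This held within 0.001 reads for each of the 20690 IDs that were above 0 in 2 or more libraries. What 1 read is worth was itself searched for, so this is a weak check for IDs above 0 in few libraries. A factor shared by all counts of an ID would not show in it. Intervals and floors from reads cover counting error only.

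FPKM were summed by symbol, and genes at 1 FPKM or more in at least 3 libraries were kept (13051 of 28103). R 4.3.3 and limma 3.58.1 gave 1 linear fit of log2(FPKM + 1) over the 15 libraries with no covariate (lmFit, contrasts.fit and trended eBayes). P-values are two-sided and Benjamini-Hochberg adjusted across the 13051 genes, with 0.05 as the threshold. Voom on the recovered counts was an alternative. The fit was also run on simulated counts in which only genes with many reads were changed. That run gives no check for genes with few reads.

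The members and lists were chosen with earlier results of these data known. All 8 members were tested in every comparison, though not each is named for each in the text. By rule the text also names their receptors, other chemokines that passed, and the 3 kept genes of highest r per member, clone names left out. One gene that this rule takes is not reported here. List names were matched to symbols exactly, then ignoring case, then without a copy letter or number, a rule set after the names were seen. The ratio to epidermis markers and the list of 18 widely used genes were also added then. RefSeq's GRCz12tu table was used for names and neighbours only.

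As alternatives, each library was left out, as were the 12 h libraries, the filter, and the groups outside a comparison. Others were voom, a replicate block (with 1 h B in a block of its own), 1 value per Ensembl ID, and quantile or median ratio scaling. The rest were a pseudocount of 0.1, array quality weights, and the submitters' threshold.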

Additional observations from a re-analysis of the deposited data

How the results depend on the processing

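The number of the 8 chemokines called depended on the setting. At 3 h against control it was 1, and it was 0 with no filter, 2 with array quality weights and without the 12 h libraries, 3 by the submitters' threshold, and 0 to 2 when each library was left out. At 12 h against 3 h it was 2. It was 1 with a pseudocount of 0.1, median ratio scaling, quantile normalization, the replicate block or voom, 0 with no filter, array quality weights or only the 2 groups, and 0 to 2 with a library left out. For the F test it was 1, and it was 0 with no filter, 3 with voom and 0 to 2 with a library left out. By voom 1 was called at 1 h against control. By the submitters' threshold there were 2 at 1 h, 3 at 6 h and 1 at 12 h against control, 1 from 1 h to 3 h, 3 from 3 h to 6 h and 5 from 6 h to 12 h. No test could be given for the 12 h comparisons without the 12 h libraries.

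Of 64 differences of a member between groups, 21 had an unadjusted p under 0.05, and none of these changed sign in up to 25 alternatives. Of the other 43, 11 changed sign in at least 1. At 3 h against control, ccl25a moved from -0.23 to 0.16 (pseudocount 0.1), 0.15 (array quality weights) and 0.67 (voom). From 1 h to 3 h, ccl19b moved from -0.56 to 0.31 (pseudocount 0.1), 0.69 (replicate block) and 0.58 (voom). The block gave 1 h B a letter of its own, so that fit in effect left this library out. At 12 h against control CXCL12 moved from 0.01 to -0.28 (median ratio) and -0.44 (quantile). From 3 h to 6 h ccl34a.4 moved from 0.11 to -0.0063 (median ratio), and at 1 h against control CXCL14 moved from -0.26 to 0.064 (array quality weights). With a library left out, the ranges were -0.71 to 0.86 for ccl25a, -0.92 to 0.47 for CXCL12 and -1.31 to 0.96 for CXCL14 at 1 h against control. At 3 h against control they were -0.65 to 0.57 for ccl25a and -0.89 to 1.37 for CXCL14, and at 12 h -0.55 to 0.84 for CXCL12. From 1 h to 3 h they were -2.06 to 0.44 for ccl19b, -0.73 to 0.48 for ccl25a and -0.58 to 1.31 for CXCL14. From 3 h to 6 h they were -0.86 to 0.43 for ccl25b and -0.14 to 0.31 for ccl34a.4. The cause was not tested.

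Deviations from the group means of the 26 same-letter pairs correlated at -0.16 to 0.13, with 1 over 0.1. Those of 64 other pairs were at -0.16 to 0.21, with 6 over 0.1. The 1 h library called B was counted among the other pairs, and its pair with 12 h B was the 0.21. Its pairs with control B, 3 h B and 6 h B were at -3.7e-05, -0.049 and 0.0087. By these values the letters gave no clear pairing of the libraries. With the replicate block ccl27a was at -5.08 at 3 h against control (limma adjusted p = 0.0112), and ccl25b at 2.45 at 12 h against 3 h (adjusted p = 0.0658). Depth limits ccl25a, with a median of 3 reads, and ccl27a at 3 h, with 0 to 77 reads.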

Other observations

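Among the other chemokine ligands, ccl44 was singled out after its values were seen, for its 1 h libraries. It was at 8.28, 12.0 and 11.7 FPKM in the control, at 0 in all 3 libraries of 1 h, and at 7.69, 9.04 and 3.33 at 3 h. At 6 h it was at 0, 16.9 and 0 FPKM, and at 12 h at 13.0, 20.3 and 18.4, above every control library. The 1 h libraries, in which ccl19a.1 was also lowest, lay below all of the control and of 3 h. Of all genes, 8.47% lay below the control at 1 h without overlap, and 6.18% lay higher at 3 h than at 1 h. At 12 h 12.2% lay above the control. The log2 difference at 1 h against control was -3.53 (SE 0.85, limma adjusted p = 0.108), and the F test over the 5 groups gave an adjusted p of 0.0513, so neither passed.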
